A study of Mus musculus with 4 samples.

Results

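*Ifitm1*, *Ifitm2*, *Ifitm3* and *Ifitm6* are interferon-induced transmembrane genes, and their UMI counts were followed here from HSPC-like cells through GMP-like cells to monocyte-like cells of mouse bone marrow. These 4 genes were taken by name from the 7 *Ifitm* genes in a matrix of 18695 genes. They were selected on their CPM and on their share of cells with a UMI in the same WT and *Tet2* KO libraries. Their levels and their ratios between genotypes are therefore given as a description, with no test.

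IFITM proteins are small membrane proteins of the CD225 family that hinder the fusion of enveloped viruses with the membranes of a cell. IFITM3 acts mainly in endosomes and lysosomes, IFITM2 has a similar place, and IFITM1 is found mostly at the cell surface. Their genes are induced by interferons, and stem cells are known to express some of them without an infection.

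RNA was measured by droplet scRNA-seq, in which a UMI marks each captured molecule near its 3' end. *Tet2* encodes a methylcytosine dioxygenase that acts on DNA. *Tet2* KO mice carried Mx1-Cre and *Tet2* fl/fl, and WT mice were their littermates with *Tet2* fl/fl and no Mx1-Cre. All mice were 8 to 12 weeks of age and all had been given 4 doses of 12.5 µg/g pI:pC, a synthetic RNA that induces interferon and, through the Mx1 promoter, Cre. The model is thus limited in that Cre is driven by an interferon-responsive promoter that is not restricted to blood cells, and in that an interferon stimulus was shared by all 4 groups. Cells were sorted either as granulocytic-monocytic progenitors (GMP) or as Lin- progenitors together with CD11b+ myeloid cells (Lin-/CD11b+). The cell table gives both sorts of a genotype the same mouse, so the sorts are not independent of each other. With 1 library per genotype and sort there was no replicate, and no p-value was computed. All intervals are exact 95% intervals that cover counting error only. Those of CPM and of ratios leave out spread between cells and are too narrow where cells of a type differ.

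WT GMP had 1258 cells with 22890469 UMIs in all, and *Tet2* KO GMP had 2719 cells with 42561110. WT Lin-/CD11b+ had 1924 cells with 22681380 UMIs, and *Tet2* KO Lin-/CD11b+ had 3068 with 34024599. Per cell the median depth was 18713 and 15488 UMIs in WT and *Tet2* KO GMP, and 11091.5 and 10417 in WT and *Tet2* KO Lin-/CD11b+. The GMP libraries were thus deeper per cell than the Lin-/CD11b+ libraries. Between 4 and 8 cell barcodes were shared by any pair of libraries.

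The cell numbers that the study lists for the *Tet2* KO GMP and the WT Lin-/CD11b+ libraries are exchanged relative to the deposited table. The deposited assignment was used. Plasma-like cells, which are not GMPs, numbered 157 in the library assigned to WT Lin-/CD11b+ and were absent from the *Tet2* KO GMP library. *Tet2* itself was at 13.02 CPM in WT GMP and 17.0 CPM in *Tet2* KO GMP, and at 13.4 and 20.7 CPM in the WT and *Tet2* KO Lin-/CD11b+ libraries. UMIs near the 3' end need not come from the deleted part of *Tet2*, so they check nothing about the knockout.

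Cells were clustered without any *Ifitm* gene and 13 types were named from marker genes. HSPC-like cells, with all 13 HSPC markers detected and *Cd34* the most abundant, numbered 261 and 469 in WT and *Tet2* KO GMP and 315 and 690 in WT and *Tet2* KO Lin-/CD11b+. Mono-biased GMP-like cells (*Ly6c2*, *F13a1*) numbered 450, 992, 247 and 316 in the same order. HSPC markers of GMP-sorted HSPC-like cells summed to 576 CPM in WT and 402 CPM in *Tet2* KO. Their 7 primary granule markers summed to 18238 and 21273.5 CPM, against 19476 and 20835 CPM in GMP-sorted mono-biased GMP-like cells. In HSPC-like Lin-/CD11b+ cells the HSPC markers summed to 854 and 903 CPM and the primary granule markers to 9413 and 8483 CPM. Monocyte-like cells (*Lgals3*, *Fn1*) were compared in the Lin-/CD11b+ sort, with 316 WT and 469 *Tet2* KO cells. A further group with high *Wfdc17*, named Wfdc17-high monocyte-like, held 29 WT and 144 *Tet2* KO cells and is given without a ratio. A cluster of 147 Lin-/CD11b+ cells, 78 WT and 69 *Tet2* KO, was not named. No erythroid, stromal or macrophage cluster was named.

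The 4 genes lie together on chromosome 7, within 62056 bases from the start of *Ifitm2* at chr7:140954837 to the end of *Ifitm6* at chr7:141016892 (GRCm38). *Ifitm1* is read from the forward strand and the other 3 genes from the reverse strand. The 250 bases before each start site are shown because the genes are known as interferon targets. They were taken from RefSeq (GRCm38.p6), in which all 4 genes matched by symbol, and are written 5′ to 3′ on the strand of the gene with motif matches in capitals. The motifs were the interferon-stimulated response element, ISRE, searched as GAAA, any 2 bases and GAAA, and the gamma-activated site, GAS, searched as TTC, any 3 bases and GAA, on both strands.
Ifitm1, chr7:140967826-140968075, forward strand: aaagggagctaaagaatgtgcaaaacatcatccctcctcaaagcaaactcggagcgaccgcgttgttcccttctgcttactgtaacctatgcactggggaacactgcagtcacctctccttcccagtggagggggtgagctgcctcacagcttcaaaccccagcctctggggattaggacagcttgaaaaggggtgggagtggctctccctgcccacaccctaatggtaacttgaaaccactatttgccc
Ifitm2, chr7:140955962-140956211, reverse strand: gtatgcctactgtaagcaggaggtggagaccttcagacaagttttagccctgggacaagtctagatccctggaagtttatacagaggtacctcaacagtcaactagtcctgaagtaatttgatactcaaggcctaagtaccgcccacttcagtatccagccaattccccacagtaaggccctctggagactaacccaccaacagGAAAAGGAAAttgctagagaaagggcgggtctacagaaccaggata
Ifitm3, chr7:141010745-141010994, reverse strand: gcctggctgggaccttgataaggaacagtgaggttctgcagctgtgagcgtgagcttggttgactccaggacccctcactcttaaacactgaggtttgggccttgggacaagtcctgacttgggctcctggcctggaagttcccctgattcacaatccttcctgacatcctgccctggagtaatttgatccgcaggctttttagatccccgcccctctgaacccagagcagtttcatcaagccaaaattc
Ifitm6, chr7:141016893-141017142, reverse strand: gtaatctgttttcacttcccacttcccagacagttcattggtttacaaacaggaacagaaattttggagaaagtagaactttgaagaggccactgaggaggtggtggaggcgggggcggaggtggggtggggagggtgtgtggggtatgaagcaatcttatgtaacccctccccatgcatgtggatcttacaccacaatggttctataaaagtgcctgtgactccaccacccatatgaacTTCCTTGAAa

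*Ifitm2* held an ISRE match from position -46 to -37 before its start, and *Ifitm6* a GAS match from -10 to -2. *Ifitm3* held none before its start but ISRE matches at positions 3 to 12 and 20 to 29 after it, with a GAS match at 14 to 22 that shares its last bases with the latter.
Ifitm3, chr7:141010714-141010743, reverse strand: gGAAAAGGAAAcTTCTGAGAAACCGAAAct
*Ifitm1* held neither motif in the window from 250 bases before to 50 after the start used. The starts used for *Ifitm1* and *Ifitm2* lie inside the annotated genes, which begin further upstream, and those earlier starts were not searched. Over windows of this length, 3.44% of 32851 RefSeq promoters held an ISRE match and 8.30% a GAS match, and of 29 type I interferon-stimulated genes with a promoter entry 15 held an ISRE match. A match is only a description of letters, and no match says nothing about a factor.

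The sequences of the transcripts bear on how far the counts of these genes can be told apart. Among stretches of 50 bases, 48.5% of those in the *Ifitm2* transcript also occurred in transcripts of other genes, *Ifitm3* and unnamed gene models among them. In the last 400 bases, which 3' counting reads most, this share was 25.4% for *Ifitm2*, 12.3% for *Ifitm3* and 1.99% for *Ifitm1*. No such stretch of *Ifitm6* occurred in another gene. Levels of *Ifitm2*, and to a lesser degree of *Ifitm3*, are therefore uncertain where reads that fit several genes were dropped. CPM is not scaled to transcript length, and the annotated transcripts of the 4 genes were between 560 and 882 bases long.

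*Ifitm1*, the cell-surface member, had its highest level of all types with at least 50 cells in basophil-like cells and its next highest in HSPC-like cells, in each of the 4 libraries. In HSPC-like cells it was at 518 CPM in WT GMP and 524 CPM in *Tet2* KO GMP, and at 807 CPM in WT and 851 CPM in *Tet2* KO Lin-/CD11b+. The mono-biased GMP-like type had it at 96.2 CPM in WT and 243 CPM in *Tet2* KO GMP, and at 118 and 281 CPM in WT and *Tet2* KO Lin-/CD11b+. In monocyte-like cells of the Lin-/CD11b+ sort it was at 39.5 CPM (32.9 to 47.0) in WT and 179 CPM (168 to 191) in *Tet2* KO. *Ifitm1* thus fell from HSPC-like to monocyte-like cells in both genotypes, but from like levels it ended lower in WT. Basophil-like cells held 2042 CPM of *Ifitm1* in WT and 2018 CPM in *Tet2* KO GMP, and 1308 and 1598 CPM in WT and *Tet2* KO Lin-/CD11b+. Plasma-like cells had the lowest levels, 16.2 CPM in WT and 21.5 CPM in *Tet2* KO. Their 9 B and plasma markers, with *Igkc* the most abundant, summed to 540077 CPM in WT and 481339 CPM in *Tet2* KO. This leaves fewer UMIs for all other genes, in CPM and in thinned cells. Low values of plasma-like cells are therefore not a floor for other types.

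In the Lin-/CD11b+ sort, *Ifitm1* of HSPC-like cells was highest in the cluster with most HSPC markers raised. Cluster 6, with 13 of 13 HSPC markers raised, held 1224 CPM in WT and 1183 CPM in *Tet2* KO. Cluster 5, with 11 of 13, held 720.5 and 674 CPM, and cluster 4, with 4 of 13, held 598 and 713 CPM. Cluster 5 was thus above cluster 4 in WT and below it in *Tet2* KO, as it was in the GMP sort, with 524 against 445 CPM in WT and 503 against 533 CPM in *Tet2* KO. Cluster 6 made up 112 of the 315 WT and 302 of the 690 *Tet2* KO HSPC-like cells of this sort. *Hlf* and *Procr* are markers of long-term stem cells. In cells thinned to 5000 UMIs, the 49 WT HSPC-like cells with a UMI of either gene held 1278 CPM of *Ifitm1* (1140 to 1427) and the 266 without held 798 CPM (751 to 848). The 123 such *Tet2* KO cells held 1195 CPM (1110.3 to 1285) and the 567 others 868 CPM (834 to 903). The intervals of cells with and without these markers did not overlap in either genotype.

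In the order of *Ifitm1* levels, neighbouring types overlapped at several places. In WT Lin-/CD11b+ cells, mono-biased GMP-like, granule-high GMP-like (105 CPM) and Siglech DC-like cells (93.5 CPM) each overlapped with the next, as did neutro-biased GMP-like (68.2 CPM), neutrophil-like (44.6 CPM) and monocyte-like cells. In *Tet2* KO Lin-/CD11b+ cells, Siglech DC-like cells stood apart in place 3 with 523 CPM, below HSPC-like and above mono-biased GMP-like cells. From T and NK-like cells (214 CPM) through granule-high GMP-like (202 CPM), monocyte-like, B-like (162 CPM), Wfdc17-high monocyte-like (143 CPM) and MHC class II DC-like cells (121 CPM), each type overlapped with the next. The T and NK-like type had 8 of 8 T and NK markers raised, which summed to 842 CPM in *Tet2* KO. Its monocytic markers summed to 5523 CPM, granulocytic ones to 13845 CPM and B and plasma ones to 21983 CPM. Its level is therefore not that of T and NK cells alone.

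*Ifitm2*, an endosomal member, was nearly level from HSPC-like to monocyte-like cells. In HSPC-like cells it was at 793 CPM in WT and 921 CPM in *Tet2* KO GMP, and at 802 and 809 CPM in WT and *Tet2* KO Lin-/CD11b+. In mono-biased GMP-like cells these levels were 762, 871, 769.8 and 813 CPM. Monocyte-like cells held 911 CPM in WT and 973 CPM in *Tet2* KO, and Wfdc17-high monocyte-like cells 1874 CPM in *Tet2* KO. Over the GMP-like, HSPC-like and basophil-like cells of the GMP sort, the highest *Ifitm2* level was 1.16 times the lowest in WT and 1.11 times in *Tet2* KO, and all neighbours in the order but the last in *Tet2* KO overlapped. Siglech DC-like cells were lower, with 388 CPM in WT and 654 CPM in *Tet2* KO, and plasma-like cells lowest, with 55.0 and 95.5 CPM.

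*Ifitm3*, the member best known for keeping influenza viruses in endosomes, rose towards monocytes. It was at 489 CPM in WT and 595 CPM in *Tet2* KO HSPC-like cells of the GMP sort, and at 606 and 735 CPM in those of the Lin-/CD11b+ sort. Mono-biased GMP-like cells held 423 CPM in WT and 746 CPM in *Tet2* KO GMP, and 505 and 848 CPM in WT and *Tet2* KO Lin-/CD11b+. Monocyte-like cells held 1792 CPM (1746 to 1839) in WT and 2238 CPM (2198 to 2279) in *Tet2* KO. The *Ifitm3* level of mono-biased GMP-like cells was below that of HSPC-like cells in both WT libraries and above it in both *Tet2* KO libraries. Neutro-biased GMP-like cells had the lowest *Ifitm3* among progenitors, 145 CPM in WT and 226 CPM in *Tet2* KO GMP, whereas neutrophil-like cells held 1086 CPM in WT and 1409 CPM in *Tet2* KO. Wfdc17-high monocyte-like cells had 5928 CPM in WT and 6221 CPM in *Tet2* KO.

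*Ifitm6*, a member with few studies of its function, was low in progenitors and high in mature myeloid cells. HSPC-like cells held 5.56 CPM in WT and 6.33 CPM in *Tet2* KO GMP, and 7.07 and 7.23 CPM in WT and *Tet2* KO Lin-/CD11b+, below plasma-like cells with 19.8 CPM in WT and 25.4 CPM in *Tet2* KO. Mono-biased GMP-like cells held 28.2 and 21.5 CPM in WT and *Tet2* KO GMP, and 32.8 and 36.9 CPM in WT and *Tet2* KO Lin-/CD11b+. In WT Lin-/CD11b+ their interval, 27.2 to 39.3, lay above that of plasma-like cells, 14.7 to 26.2, while in *Tet2* KO these intervals overlapped. As B and plasma markers took up much of the UMIs of plasma-like cells, nothing is read from this order. Monocyte-like cells held 266 CPM (248 to 284) in WT and 165 CPM (154 to 176) in *Tet2* KO. Neutrophil-like cells had the highest *Ifitm6* of WT cells, 2483 CPM (2402 to 2566), against 1069.7 CPM (1021 to 1120.5) in *Tet2* KO, where they overlapped with Wfdc17-high monocyte-like cells at 979 CPM. In WT, the latter held 1596 CPM. *Ifitm6* thus had its steepest rise between progenitors and mature cells. Neutro-biased GMP-like cells held 1.35 CPM in WT and 2.82 CPM in *Tet2* KO GMP, and 13.5 and 25.0 CPM in WT and *Tet2* KO Lin-/CD11b+.

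**Figure D1:**
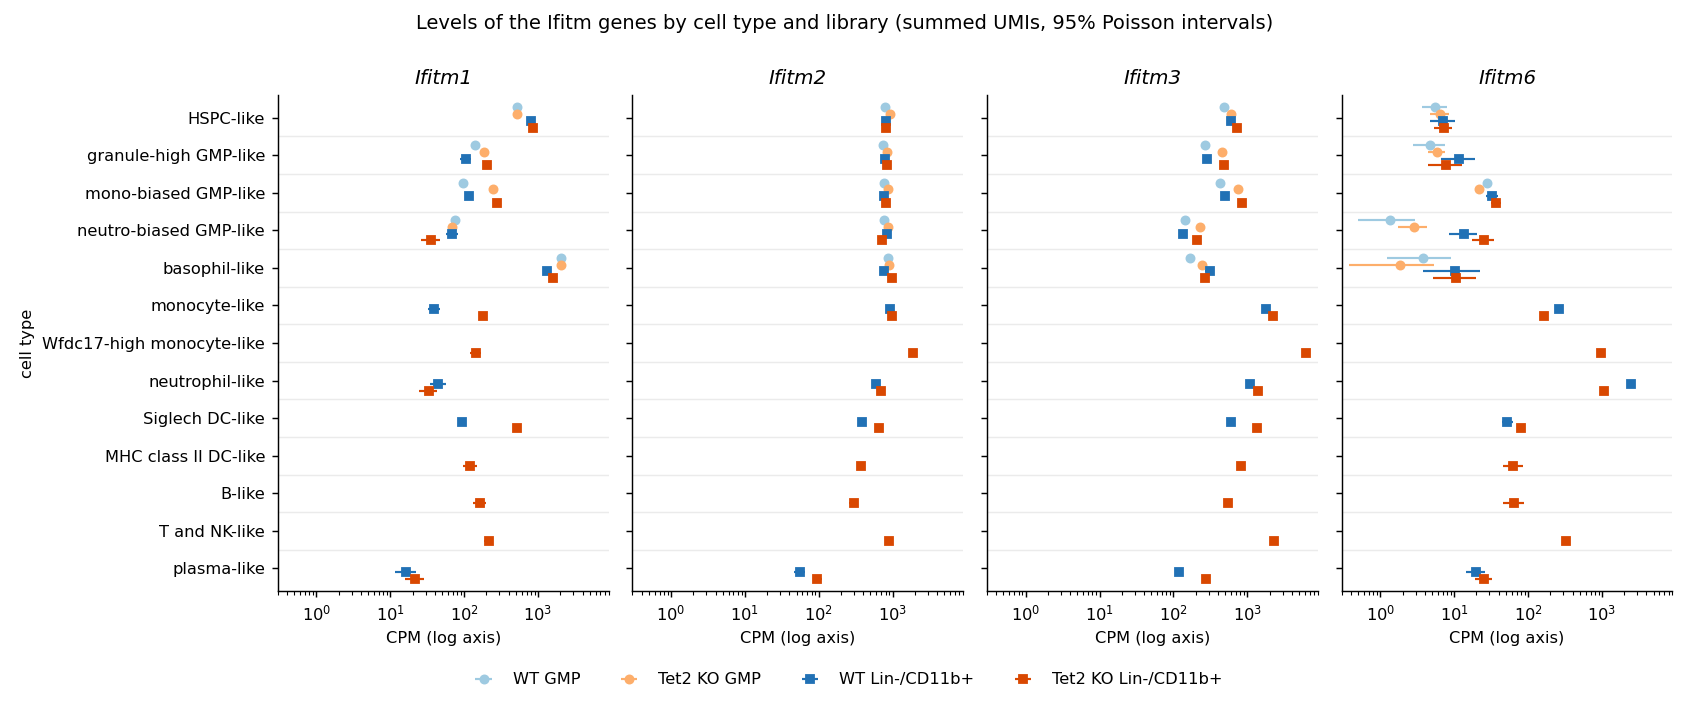
CPM of each gene (log axis, exact 95% Poisson intervals) by cell type, for each library and type with at least 50 cells. *Ifitm1* was highest in basophil-like and HSPC-like cells, *Ifitm2* lay between 762 and 973 CPM in HSPC-like, mono-biased GMP-like and monocyte-like cells but spread more widely over the other types, and *Ifitm3* and *Ifitm6* were high in monocyte-like and neutrophil-like cells.

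**Figure D2:**
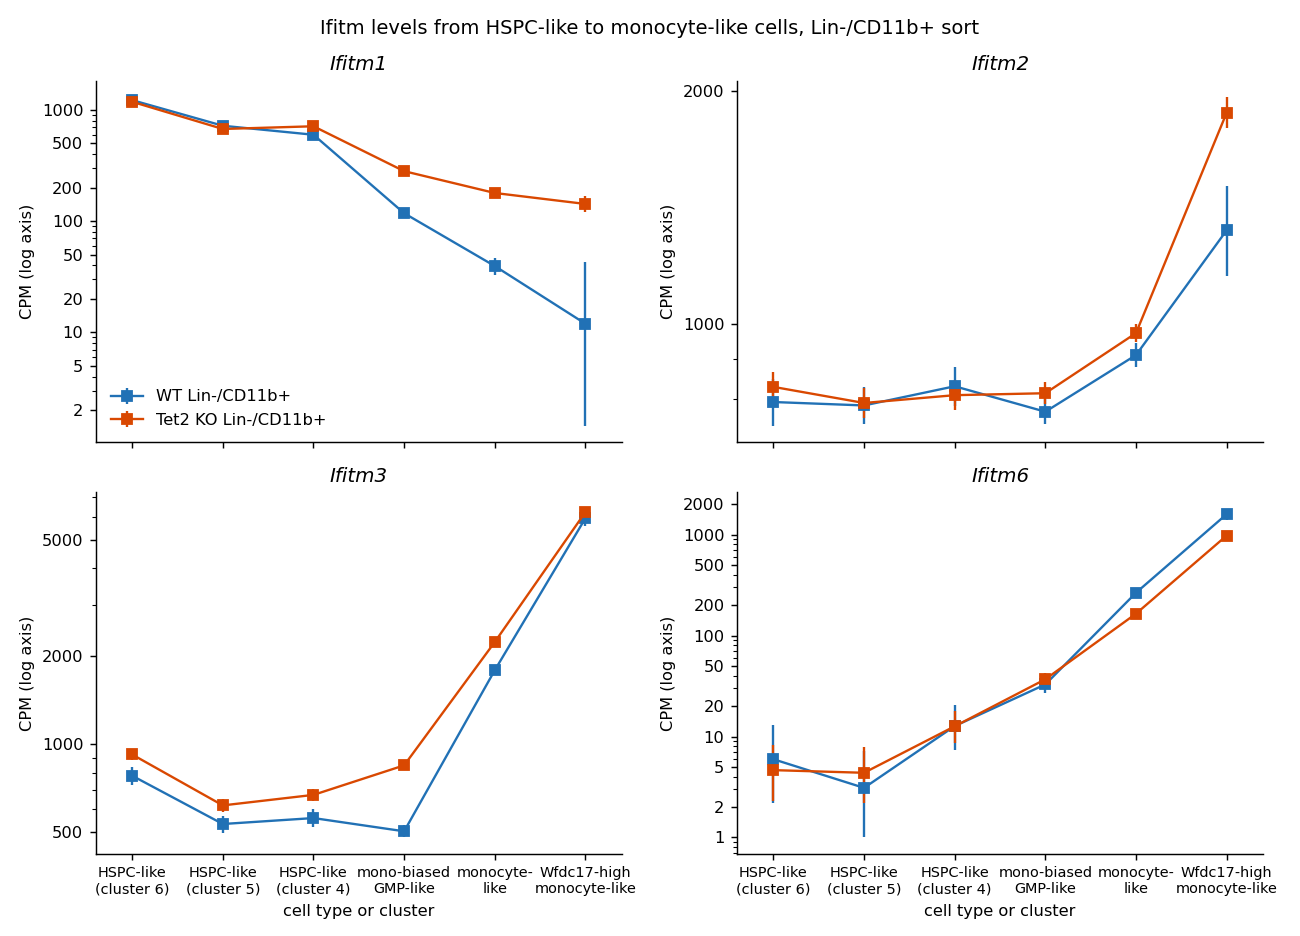
CPM (log axis, exact 95% Poisson intervals) of the Lin-/CD11b+ libraries from the HSPC-like clusters, set in order of HSPC markers raised, to Wfdc17-high monocyte-like cells, with lines that join types and no measured time. *Ifitm1* of WT and *Tet2* KO lay close in HSPC-like clusters and apart from mono-biased GMP-like cells on, where WT was at 118 CPM and *Tet2* KO at 281 CPM.

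The 4 genes together made up 2222 CPM in WT and 2402 CPM in *Tet2* KO HSPC-like Lin-/CD11b+ cells, and 3009 and 3555 CPM in monocyte-like cells. *Ifitm1* gave 36.3% of these UMIs in WT HSPC-like cells and 1.31% in WT monocyte-like cells. In *Tet2* KO it gave 35.4% in HSPC-like and 5.04% in monocyte-like cells. *Ifitm3* gave 27.3% in WT HSPC-like and 59.6% in WT monocyte-like cells. The make-up of *Ifitm* RNA thus shifted from *Ifitm1* towards *Ifitm3* on the way to monocytes in both genotypes. In neutrophil-like cells *Ifitm6* gave 58.9% of the UMIs in WT and 33.5% in *Tet2* KO, where *Ifitm3* gave 44.1%.

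Of the 3 other *Ifitm* genes, *Ifitm7* was the only to reach 5 CPM in HSPC-like cells, with 9.92 and 14.9 CPM in WT and *Tet2* KO GMP and 9.60 and 10.6 CPM in WT and *Tet2* KO Lin-/CD11b+. No UMI of *Ifitm7* was found in the 316 WT and 469 *Tet2* KO monocyte-like cells of the Lin-/CD11b+ sort. Over all cells, *Ifitm5* and *Ifitm10* were below 1 CPM in each of the 4 libraries. *Ifitm5*, a bone cell gene, lies next to *Ifitm2*, and *Pgghg* and *Nlrp6* lie beyond it. *B4galnt4* and *Pkp3* follow *Ifitm6*. In WT monocyte-like cells these neighbours of the 4 genes were at 7.21 CPM (*Pgghg*), 0.313 CPM (*B4galnt4*) and 14.1 CPM (*Pkp3*), and *Nlrp6* had no UMI. The high levels in myeloid cells thus did not extend to the genes on either side.

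Shares of cells with a UMI followed the levels. *Ifitm1* was found in 95.2% of the WT and 97.4% of the *Tet2* KO cells of HSPC-like type in the Lin-/CD11b+ sort, at median depths of 12217 and 10390 UMIs. With cells thinned to 5000 UMIs, which all cells reached, these shares were 85.4% (81.0 to 89.1) and 92.8% (90.6 to 94.6). For GMP-sorted mono-biased GMP-like cells the thinned share was 27.8% (23.7 to 32.2) in WT and 47.5% (44.3 to 50.6) in *Tet2* KO, from 50.9% and 69.6% unthinned. In monocyte-like cells it was 12.3% (8.93 to 16.5) in WT and 36.5% (32.1 to 41.0) in *Tet2* KO, from 18.4% and 49.5% unthinned, at median depths of 9937.5 and 10574 UMIs. Free RNA gives UMIs to cells that do not express a gene. In plasma-like cells, the type with the least *Ifitm1*, the share was 2.55% (0.698 to 6.39) in WT and 5.33% (2.46 to 9.87) in *Tet2* KO after thinning, and 5.73% and 8.88% before, at median depths of 14876 and 12655 UMIs. The share in WT monocyte-like cells was thus above that in WT plasma-like cells, with intervals that did not overlap. Thinned plasma-like cells hold fewer UMIs of other genes because of their B and plasma markers, so their share is not a floor for free RNA.

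*Ifitm6* had a UMI in monocyte-like cells at a share of 63.0% (57.4 to 68.3) in WT against 50.5% (45.9 to 55.2) in *Tet2* KO after thinning, and in 81.0% and 72.3% before. In HSPC-like cells of the same sort its thinned share was 2.86% in WT and 3.04% in *Tet2* KO, against 1.91% and 4.73% in plasma-like cells. *Ifitm2* had a thinned share of 98.7% in WT and 98.1% in *Tet2* KO HSPC-like cells and 98.4% and 97.9% in monocyte-like cells. *Ifitm3* had one of 89.8% and 91.6% in HSPC-like and 97.2% and 99.8% in monocyte-like cells, against 25.5% in WT and 24.3% in *Tet2* KO plasma-like cells. Thinned cells of HSPC-like and monocyte-like type thus nearly all held *Ifitm2* and *Ifitm3*. The share with *Ifitm1* was higher in HSPC-like and that with *Ifitm6* in monocyte-like cells. In *Tet2* KO monocyte-like cells, however, *Ifitm1* was at 179 CPM and *Ifitm6* at 165 CPM.

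WT and *Tet2* KO were compared within each sort in 14 combinations of type and sort with at least 50 cells in both libraries. For *Ifitm1* the interval of log2 *Tet2* KO CPM over WT CPM lay above 0 in 8, below 0 in 1 and held 0 in 5. For *Ifitm2* these numbers were 10, 1 and 3, for *Ifitm3* 13, 0 and 1, and for *Ifitm6* 2, 3 and 9. Such intervals leave out 0 for small ratios where a gene has many UMIs, so these numbers are not a measure of size. The share of all genes with such an interval is not given here, so nothing is read from these numbers. Of the 4 genes *Ifitm1* had the widest range of ratios, from -0.95 to 2.48 on the log2 scale.

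*Ifitm1* differed little between genotypes in HSPC-like cells, with a log2 ratio of 0.02 (-0.06 to 0.09) among GMP and 0.08 (0.01 to 0.14) among Lin-/CD11b+ cells. The latter value turned to -0.04 with cells gated by marker UMIs and to -0.03 with *Ifitm* genes kept in the clustering. Within the HSPC-like clusters of the Lin-/CD11b+ sort it was -0.05 in cluster 6, -0.10 in cluster 5 and 0.25 (0.13 to 0.38) in cluster 4. Cluster 6, the one with the highest *Ifitm1*, also made up more of the *Tet2* KO than of the WT cells, and the part of this in the pooled value was not tested. For mono-biased GMP-like cells the values were 1.34 (1.23 to 1.45) among GMP and 1.26 (1.10 to 1.42) among Lin-/CD11b+ cells, 2.53-fold and 2.39-fold. With cells gated by marker UMIs the first of these was 1.08. This type pools clusters 0 and 1, with 0.93 (0.77 to 1.09) and 1.70 (1.54 to 1.86) among GMP. Among Lin-/CD11b+ cells these clusters had 1.59 (1.28 to 1.91) and 1.14 (0.95 to 1.33), in the other order. In monocyte-like cells the log2 ratio was 2.18 (1.91 to 2.46), 4.54-fold, and 2.93 with gated cells. The ratio of *Ifitm1* was thus near 0 in HSPC-like, higher in mono-biased GMP-like and higher still in monocyte-like cells of the libraries compared. Wfdc17-high monocyte-like cells, with 29 in WT, were too few for a ratio and are not part of this order. Granule-high GMP-like cells had 0.43 (0.29 to 0.58) among GMP and 0.94 (0.67 to 1.23) among Lin-/CD11b+ cells, and neutro-biased GMP-like cells -0.14 (-0.34 to 0.06) and -0.95 (-1.47 to -0.45). Neutrophil-like cells had -0.44 (-0.98 to 0.11), with 44.6 CPM in WT and 32.9 CPM in *Tet2* KO.

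Siglech DC-like cells had the highest *Ifitm1* ratio, 2.48 (2.30 to 2.68), from 93.5 CPM in 297 WT cells to 523 CPM in 458 *Tet2* KO cells. *Siglech* marks plasmacytoid dendritic cells, which make interferon. Most thinned cells of the type held no *Siglech* UMI, 209 of 297 in WT and 344 of 458 in *Tet2* KO. Thinned cells of this type with a *Siglech* UMI held 11.4 CPM of *Ifitm1* in 88 WT cells and 195 CPM in 114 *Tet2* KO cells, and those without one 123 CPM and 652 CPM. The level of the 88 WT cells rested on 5 UMIs. At Leiden resolution 1.2 the log2 ratio was 1.83. Markers of the type moved as well. All 12 dendritic markers had a UMI in both libraries, their sum was 2915 CPM in WT and 5924 CPM in *Tet2* KO, and the most abundant was *Bst2* (914 CPM) in WT and *Cd74* (2189 CPM) in *Tet2* KO. The part of this shift in the *Ifitm* ratios was not tested. The 12 monocytic markers, with *Irf8* the most abundant, summed to 5486 CPM in WT and 5117 CPM in *Tet2* KO. They were thus above the dendritic sum in WT and below it in *Tet2* KO.

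Neighbouring values were also given for monocyte-like cells, since granulocytic markers were higher there in *Tet2* KO. All 13 granulocytic markers had a UMI in both libraries, with a sum of 1073 CPM in WT and 4597 CPM in *Tet2* KO, of which *S100a8* made up 415 and 3440 CPM. The 12 monocytic markers summed to 9634 CPM in WT and 8931 CPM in *Tet2* KO, with *Ly6c2* the most abundant. Thinned monocyte-like cells with an *Mpo* UMI, an early granule gene, had 42.1 CPM of *Ifitm1* in WT and 178 CPM in *Tet2* KO, and those without had 23.4 and 196 CPM. The log2 ratios of *Ifitm1* were 2.08 (1.57 to 2.63) with and 3.06 (2.35 to 3.87) without an *Mpo* UMI. The primary granule markers, *Mpo* among them, summed to 5117 CPM in WT and 5144 CPM in *Tet2* KO. This split is not on *S100a8*, and the part of the granulocytic shift in these ratios was not tested. Among GMP-sorted mono-biased GMP-like cells, 11 of 13 granulocytic markers had a UMI in each library, with sums of 453 CPM in WT (*Ly6g* and *Retnlg* at 0) and 702 CPM in *Tet2* KO (*Ngp* and *Ltf* at 0), and *Gstm1* was the most abundant in both. In the Lin-/CD11b+ sort all 13 had a UMI in this type, with sums of 712 CPM in WT and 1393 CPM in *Tet2* KO. *Gstm1* was the most abundant there in WT and *S100a8*, at 867 CPM, in *Tet2* KO.

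*Ifitm3* was higher in *Tet2* KO in each type and sort compared but basophil-like cells of the Lin-/CD11b+ sort, where the log2 ratio was -0.19 (-0.48 to 0.09). It was 0.28 in HSPC-like cells of both sorts, with intervals of 0.21 to 0.35. Mono-biased GMP-like cells had 0.82 (0.76 to 0.87) among GMP and 0.75 (0.67 to 0.83) among Lin-/CD11b+ cells. Granule-high GMP-like cells had 0.75 and 0.76, and neutro-biased GMP-like cells 0.64 and 0.60, each with an interval above 0. In neutro-biased GMP-like cells the monocytic markers summed to 1528 CPM in WT and 2769 CPM in *Tet2* KO GMP. In the Lin-/CD11b+ sort these sums were 1771 and 2719 CPM. For granule-high GMP-like cells they were 2446 and 3141 CPM among GMP and 2542 and 3169 CPM among Lin-/CD11b+ cells. *Ly6c2* was the most abundant in each, and the part of this in the ratios was not tested. In monocyte-like cells the log2 ratio was 0.32 (0.27 to 0.37), in neutrophil-like cells 0.37 (0.28 to 0.47) and in Siglech DC-like cells 1.18 (1.11 to 1.26), with 593 CPM in WT and 1347 CPM in *Tet2* KO. The first of these ratios was larger at resolution 1.2 and with gated cells, as given in the last section. The ratio in neutrophil-like cells is to be read against a median of 0.26 for all genes there and a TMM shift of -0.26. Among thinned Siglech DC-like cells with a UMI of *Cd209a*, *Ifitm3* was at 2010.3 CPM in 39 WT cells and 4222 CPM in 72 *Tet2* KO cells. Plasma-like cells had 1.21 (1.01 to 1.42), although the share of cells with a UMI was alike in both libraries. Their 12 monocytic markers, all with a UMI and *Ly6c2* the most abundant, summed to 930.3 CPM in WT and 2043 CPM in *Tet2* KO, and the part of this in the ratio was not tested.

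*Ifitm2* had small ratios. In HSPC-like cells the log2 ratio was 0.22 (0.16 to 0.27) among GMP and 0.01 (-0.05 to 0.07) among Lin-/CD11b+ cells, in mono-biased GMP-like cells 0.19 and 0.08, and in monocyte-like cells 0.09 (0.03 to 0.16). Siglech DC-like cells with 0.75 (0.65 to 0.86) and plasma-like cells with 0.80 (0.48 to 1.12) had larger ones. Neutro-biased GMP-like cells had 0.19 among GMP and -0.21 (-0.33 to -0.09) among Lin-/CD11b+ cells. In neutrophil-like cells *Ifitm2* had a ratio of 0.19 (0.06 to 0.32), which turned to -0.07 with TMM scaling.

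*Ifitm6* was lower in *Tet2* KO in neutrophil-like cells, and its ratios in other types went both ways. For neutrophil-like cells the log2 ratio was -1.22 (-1.30 to -1.13), from 2483 CPM in WT to 1069.7 CPM in *Tet2* KO, 2.32-fold lower in the latter. In monocyte-like cells it was -0.69 (-0.83 to -0.55). This value became 0.02 with cells gated by marker UMIs and -0.08 at resolution 1.2, so the *Ifitm6* difference in monocytes depended on which cells were counted as such. Of the gated cells, 62.6% of 107 in WT and 33.2% of 235 in *Tet2* KO were in the monocyte-like cluster. Mono-biased GMP-like cells had -0.39 (-0.64 to -0.15) in the GMP sort but 0.17 (-0.18 to 0.52) in the Lin-/CD11b+ sort. Siglech DC-like cells had 0.61 (0.33 to 0.90), which turned to -0.41 at resolution 1.2.

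Marker values were also given for neutrophil-like cells. All 13 granulocytic markers had a UMI in both libraries, their sum was 453530 CPM in WT and 382180 CPM in *Tet2* KO, and *S100a8* was the most abundant. *Retnlg*, a gene of late neutrophils, was at 3595 CPM in WT and 1124 CPM in *Tet2* KO, and *Mmp8* at 236 and 124 CPM. The 7 primary granule genes summed to 1054 CPM in WT and 2793 CPM in *Tet2* KO, led by *Elane*. A UMI of *Retnlg* or *Mmp8* was found in 56.7% of the 150 WT and 40.5% of the 158 *Tet2* KO thinned cells. Those with such a UMI held 3555 CPM of *Ifitm6* in WT and 1491 CPM in *Tet2* KO, and those without 1895 and 1013 CPM. The log2 ratios were -1.25 (-1.41 to -1.10) with and -0.90 (-1.08 to -0.73) without such a UMI. The part of the marker shift in these ratios was not tested.

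**Figure D3:**
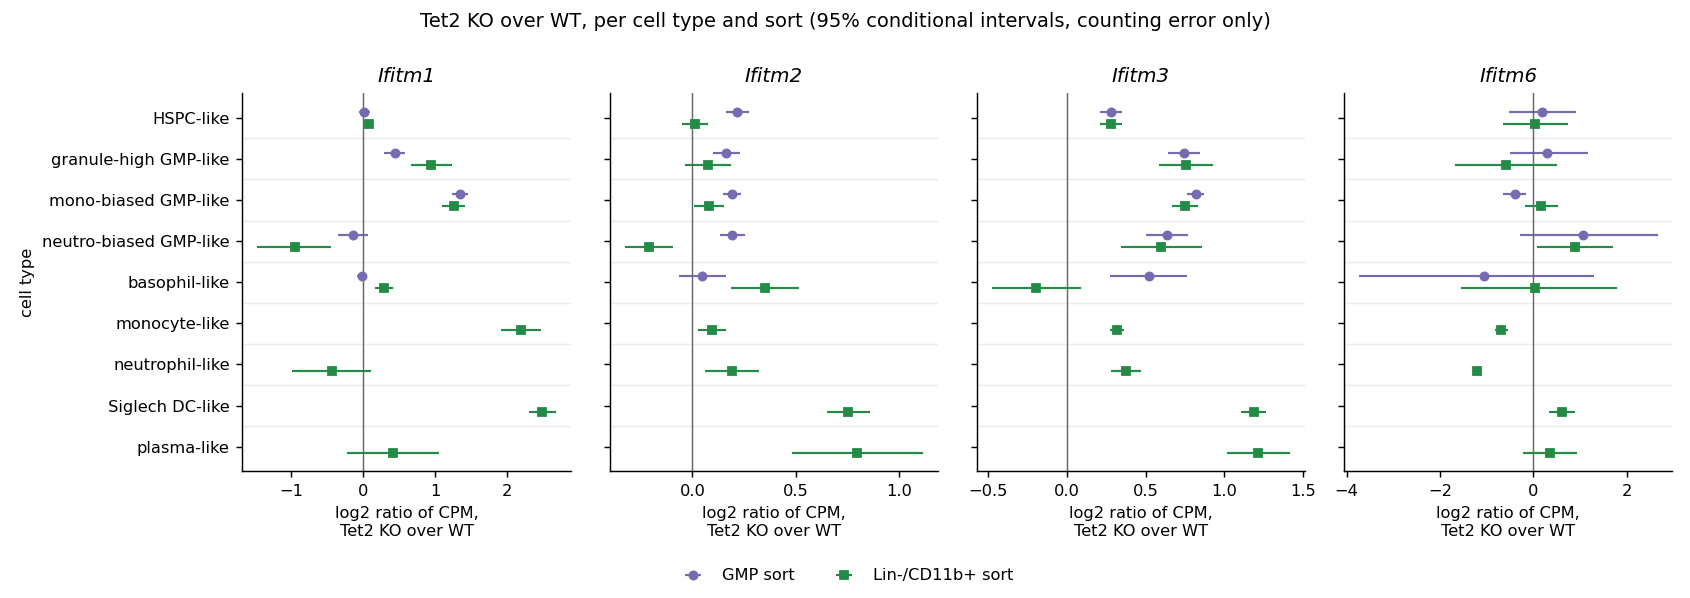
Log2 of the *Tet2* KO CPM divided by the WT CPM, with exact conditional 95% intervals for counting error, per gene, cell type and sort, with a scale of its own for each gene. *Ifitm1* was near 0 in HSPC-like cells and at 2.18 in monocyte-like cells, *Ifitm3* ran from -0.19 to 1.21, and *Ifitm6* was at -1.22 in neutrophil-like cells.

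These ratios were set against all genes with at least 20 UMIs over both libraries, on the scale of CPM + 1, with 1.5-fold as the limit. In HSPC-like Lin-/CD11b+ cells 5.85% of 10352 genes were at least 1.5-fold higher in *Tet2* KO and 2.11% lower, and none of the 4 members passed in either direction. For mono-biased GMP-like cells from the GMP sort 2.04% of 10564 genes were higher and 3.1% lower, and *Ifitm1* and *Ifitm3* were among the higher, in places 28 and 88 from the top. In monocyte-like cells 5.91% of 9294 genes were higher and 4.28% lower. *Ifitm1* was among the higher, in place 14, and *Ifitm6* among the lower. In Siglech DC-like cells 6.76% of 9564 genes were higher and 4.56% lower, and all 4 members were higher with the types used here (3 with 10 CPM added), with *Ifitm1* in place 6 and *Ifitm3* in place 95. In neutrophil-like cells 21.7% of 6345 genes were higher and 4.48% lower, and *Ifitm6* alone of the members was lower, in place 6278. All genes together had a median log2 ratio of 0.26 there, and TMM scaling shifted the ratios by -0.26, so ratios of neutrophil-like cells are to be read relative to that shift. In plasma-like cells this shift was -0.16, and in the other types it lay between -0.08 and 0.05. Because the members were selected on these same values, nothing is read from their counts.

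The number of the 4 genes with a UMI was also counted per cell. Nearly all monocyte-like cells held *Ifitm2* and *Ifitm3*, so their share with all 4 depends mainly on the *Ifitm1* and *Ifitm6* shares given above. In monocyte-like cells thinned to 5000 UMIs, all 4 had a UMI in 8.23% of WT and 18.6% of *Tet2* KO cells. In Siglech DC-like cells these shares were 4.71% and 18.1%, and no member had a UMI in 24.2% and 11.1%. In neutrophil-like cells all 4 genes had a UMI in 10% of WT and 8.23% of *Tet2* KO cells, and 3 of them in 66% and 73.4%. HSPC-like cells mostly held 3 members, 76.5% of WT and 82.0% of *Tet2* KO cells in the Lin-/CD11b+ sort. Most plasma-like cells held none, 71.3% in WT and 71.0% in *Tet2* KO. In *Tet2* KO monocyte-like cells with an *Ifitm1* UMI the mean was 2.55 thinned UMIs, against 1.36 in WT, so cells with the gene were more frequent and also held more of it. In 5.33% of *Tet2* KO and in no WT monocyte-like cell, *Ifitm1* had 5 or more thinned UMIs.

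**Figure D4:**
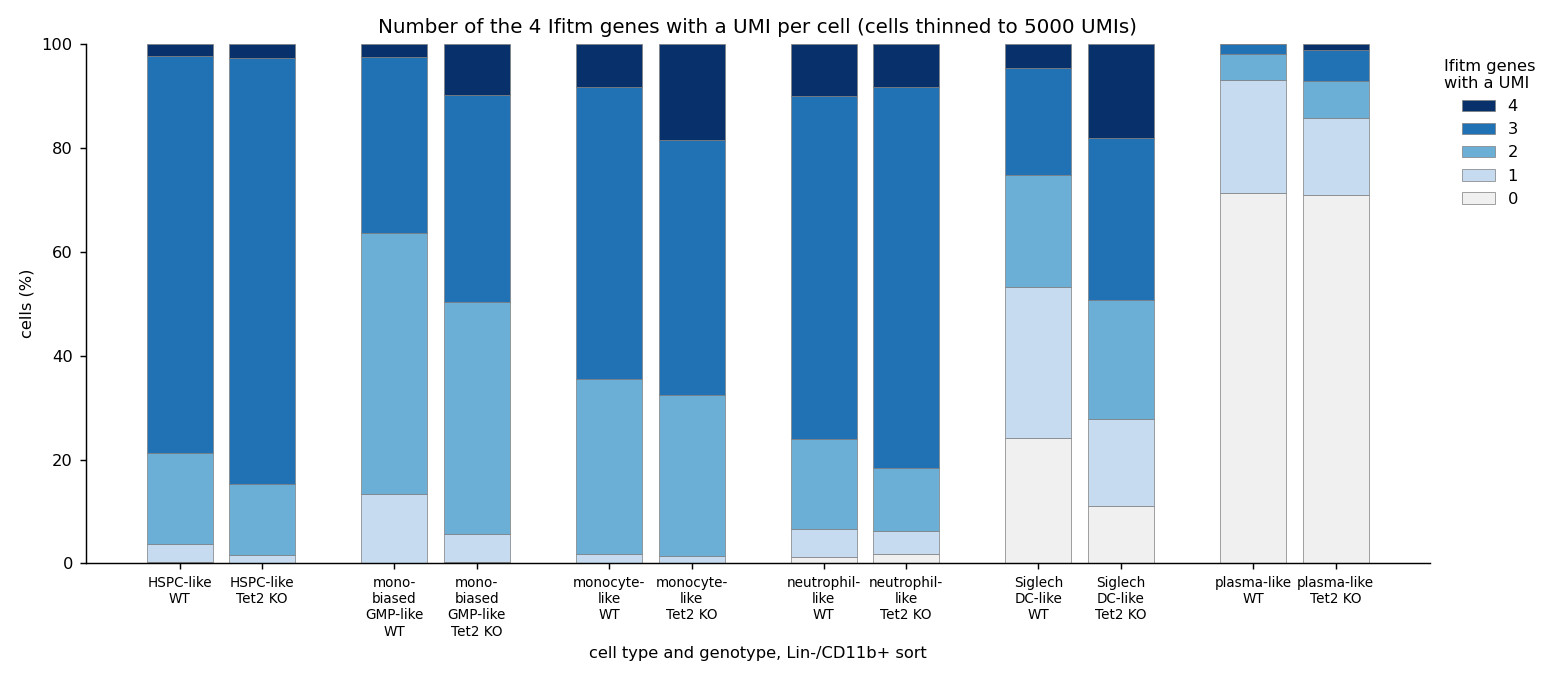
Share of cells (%) by the number of the 4 genes with a UMI, in cells thinned to 5000 UMIs of the Lin-/CD11b+ sort, for WT and *Tet2* KO. Monocyte-like and Siglech DC-like cells with all 4 genes were more frequent in *Tet2* KO (18.6% and 18.1%) than in WT (8.23% and 4.71%), and most plasma-like cells held none.

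Other interferon genes were described with lists, which were chosen with earlier results of these data known. Each count below is to be read against the share of all genes at least 1.5-fold higher in *Tet2* KO, which was 5.85% in HSPC-like, 2.04% in mono-biased GMP-like, 5.91% in monocyte-like, 6.76% in Siglech DC-like and 21.7% in neutrophil-like cells. Of 28 measured type I interferon-stimulated genes, 10 were at least 1.5-fold higher in *Tet2* KO HSPC-like cells and 0 lower, with a median log2 ratio of 0.27 against 0.03 for all genes. *Isg15*, a ubiquitin-like modifier, was at 16.4 CPM in WT and 28.8 CPM in *Tet2* KO. Of those with at least 100 UMIs *Oasl2* had the highest ratio, 1.27, from 5.56 to 14.9 CPM. *Bst2*, a tether of budding viruses that is also among the dendritic markers, was at 173 and 169.7 CPM. Some interferon-stimulated genes thus passed 1.5-fold in HSPC-like cells while *Ifitm1* did not. Markers of other types differed there too. Dendritic markers, 11 of 12 with a UMI in WT (*Cd209a* at 0) and 12 in *Tet2* KO, summed to 381 and 621 CPM with *Bst2* the most abundant. Erythroid and megakaryocyte markers, 8 of 9 with a UMI in WT (*Car1* at 0) and 7 in *Tet2* KO (*Car1* and *Hba-a1* at 0), summed to 182 and 277 CPM with *Car2* the most abundant. Macrophage markers, with *Apoe* the most abundant at 119 and 217 CPM, summed to 121 and 219 CPM. B and plasma markers, with *Igkc* the most abundant, summed to 659 and 829 CPM. The part of these shifts in the list counts was not tested. In mono-biased GMP-like cells, 2 of 21 measured genes were higher and 1 lower, with a median of 0.16 against -0.03 for all genes. The 2 were *Isg15* and *Zbp1*, with ratios of 1.01 and 1.14 against 1.33 for *Ifitm1*. Without the added 1 CPM these were 1.29 (0.57 to 2.09), 1.39 (0.75 to 2.08) and 1.34, so the order of the 3 genes depended on it.

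In monocyte-like cells 5 of 19 measured interferon-stimulated genes were higher and 0 lower, with a median of 0.22, and *Ifi27l2a* went from 339 CPM in WT to 578 CPM in *Tet2* KO. In Siglech DC-like cells 10 of 21 were higher and 0 lower, with a median of 0.54 against 0.00 for all genes. There *Ifi27l2a* was at 325 and 640.1 CPM and *Zbp1* at 10.9 and 28.8 CPM, whereas *Bst2* was at 914 CPM in WT and 775 CPM in *Tet2* KO. In neutrophil-like cells 8 of 18 (44.4%) were higher, where 21.7% of all genes were, and 1 lower, with a median of 0.43 against 0.26 for all genes. *Ifi27l2a* had the highest ratio among those with at least 100 UMIs, 1.53. These counts depended on the pseudocount, since most of the genes were below 30 CPM. With 10 CPM in place of 1 CPM added, 2 of the interferon-stimulated genes were higher in HSPC-like, 0 in mono-biased GMP-like, 3 in monocyte-like, 5 in Siglech DC-like and 3 in neutrophil-like cells. The numbers of all genes fell as well, to 36 of 10352, 38 of 10564, 80 of 9294, 104 of 9564 and 514 of 6345 in the same order.

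Interferon-induced GTPases, which act on vacuoles with intracellular pathogens, were higher in *Tet2* KO in 6 of 10 measured genes in HSPC-like cells, with a median of 0.85. *Iigp1* was at 1.77 CPM there in WT and 13.9 CPM in *Tet2* KO. In monocyte-like cells 4 of 6 were higher, with a median of 0.95, in Siglech DC-like cells 4 of 6, in neutrophil-like cells 2 of 3 and in mono-biased GMP-like cells 1 of 8. No GTPase was at least 1.5-fold lower in these 5 comparisons. With 10 CPM added, where the numbers of all genes are those given above for 10 CPM, 3 GTPases were higher in HSPC-like cells, 1 in monocyte-like cells and 0 in the other types. Among GTPases with at least 100 UMIs, *Gbp3* had the lowest ratio in all types but neutrophil-like cells, where it was not measured. Its log2 ratio was -0.39 in mono-biased GMP-like and -0.46 in monocyte-like cells.

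Among 15 interferon receptor and signalling genes, 2 were higher in HSPC-like, 2 in mono-biased GMP-like, 3 in monocyte-like and 3 in Siglech DC-like cells, with 0 lower, and in neutrophil-like cells 2 of 12 were higher and 1 lower. The 2 of 12 are 16.7%, below the 21.7% of all genes there. *Irf7*, the amplifier of type I interferon, was at 5.64 CPM in WT and 18.3 CPM in *Tet2* KO monocyte-like cells but at 26.5 and 14.4 CPM in neutrophil-like cells. *Irf9* was at 23.5 and 29.9 CPM in monocyte-like cells. The receptor gene *Ifnar2* was at 124 CPM in WT and 91.5 CPM in *Tet2* KO monocyte-like cells, which is within the 1.5-fold limit. Of the 7 genes known to modify or bind IFITM proteins, 1 was higher in HSPC-like cells (*Fyn*), 0 of 7 in mono-biased GMP-like, 0 of 6 in monocyte-like, 1 of 7 in Siglech DC-like and 2 of 6 in neutrophil-like cells, with 0 lower. Other CD225 family genes were measured in HSPC-like and mono-biased GMP-like cells only, 2 genes in each, and 0 passed 1.5-fold.

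**Figure D5:**
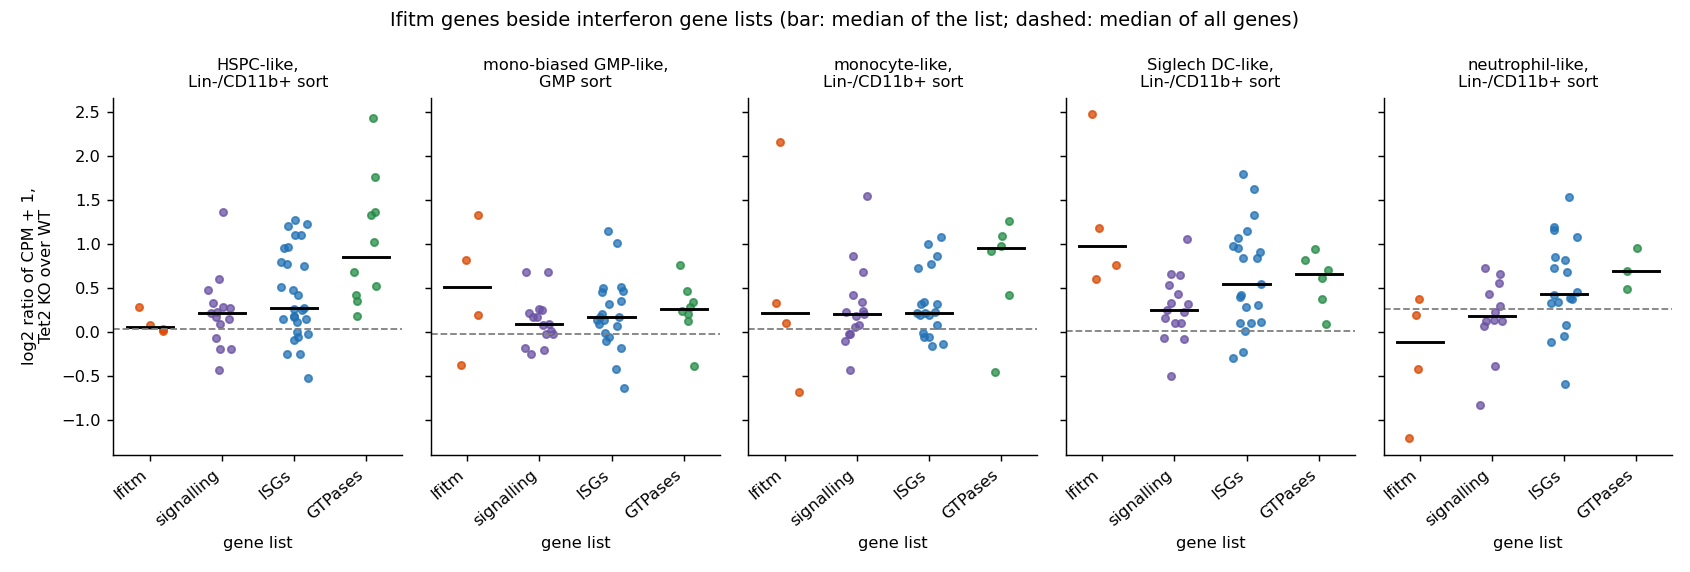
Log2 of *Tet2* KO over WT (CPM + 1) for each measured gene of the *Ifitm* members and of 3 interferon lists in 5 cell types. Bars are list medians and the dashed line is the median of all measured genes, which was 0.26 in neutrophil-like cells.

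The genes with the patterns most like each member were found by Pearson correlation of log2(CPM + 10) over 32 profiles of a library and cell type with at least 50 cells, among 7591 genes. These profiles share libraries, so the values are descriptions with no test. For *Ifitm1* they were *Ripor1* (0.91), *Heatr5a* (0.88) and *Dapp1* (0.88). For *Ifitm2* they were *Gpx1*, *Rsu1* and *Cops9*, each at 0.91. For *Ifitm3* they were *Cd302* (0.91), *Tgfbi* (0.90) and *Nupr1* (0.90), and for *Ifitm6* *Pirb* (0.96), *Tmcc1* (0.95) and *Mmp8* (0.94), a granulocytic marker. Among the members themselves, *Ifitm3* and *Ifitm6* were most alike with 0.76, *Ifitm1* and *Ifitm2* had 0.45, and *Ifitm1* had -0.02 with *Ifitm3* and -0.40 with *Ifitm6*. None of the 4 genes was thus among the 10 most like another.

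With 1 library per group, a difference of genotype cannot be told apart from a difference between animals, sorts or preparations. Free RNA was not removed, and RNA levels say nothing about IFITM protein.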

How the data were processed

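Single-cell RNA of 4 libraries was used, 1 per genotype and sort. The deposited values are raw UMI counts that the authors made with Cell Ranger 3.1.0 on mm10 and filtered for genes and cells in Seurat. The kit is named v2 in the protocol and v3.1 in the design text of the labels. All 8969 deposited cells were kept, with at least 5003 UMIs each, and so were 413 cells with 5% or more mitochondrial counts, which the filter described by the authors would drop.

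The members and lists were chosen with earlier results of these data known. Cells were clustered with scanpy 1.11.5 (Python 3.11.15, igraph 0.11.9, seed 1), with 2000 variable genes and no *Ifitm* gene, 30 principal components, 30 neighbours and Leiden resolution 0.8. The 16 clusters became 17 after a mixed cluster was split at resolution 0.4. A cluster was named after the marker list with the largest share of genes raised at least 1.5-fold, with at least 3 such genes and a lead of 0.1 over the next lineage. The names within a class were set after the clusters were seen. No doublet caller was used to remove cells.

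CPM was computed from the summed UMIs of a gene in a type and library, over the UMIs of all genes. Intervals at 95% were exact, Poisson for CPM, binomial for shares and conditional binomial for ratios (scipy 1.17.1, numpy 2.4.6, pandas 2.3.3). Those of ratios were run on simulated counts with counting error only, which checks the code but not their width for these cells. The variance of thinned *Ifitm1* UMIs over their mean was 3.51 in *Tet2* KO monocyte-like cells. It was 18.9 in *Tet2* KO GMP basophil-like cells, against 1.08 for *Ifitm2* in *Tet2* KO HSPC-like Lin-/CD11b+ cells. Ratios needed 50 cells in both libraries. Cells were thinned to 5000 UMIs for shares. Genes named beyond the members had the highest or lowest ratio of a list with at least 100 UMIs, were named throughout (*Irf7*, *Irf9*, *Isg15*, *Bst2*, *Ifi27l2a*), lay next to the members, were most like a member, or marked a cell type. The values of 1 further gene are not reported here, while the counts of its list include it. Splits by marker genes and the Siglech DC-like and neutrophil-like comparisons were added after values were seen.

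Alternatives were TMM factors (edgeR 4.0.16, R 4.3.3), *Ifitm* genes kept in the clustering, resolution 1.2, gates on single cells, means over cells, the other sort, Wfdc17-high monocyte-like cells added, other filters and pseudocounts for lists, and removal of cells with 5% or more mitochondrial counts, of the highest 5% of Scrublet scores or of the 3 cells with most UMIs of the gene. Figures were drawn with matplotlib 3.10.9.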

Additional observations from a re-analysis of the deposited data

Results flagged for a closer look

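For 3 of the 4 genes, the log2 ratio between *Tet2* KO and WT pointed in opposite directions in cell types of the Lin-/CD11b+ sort, with intervals for counting error on either side of 0. *Ifitm1* had 2.48 in Siglech DC-like cells and -0.95 in neutro-biased GMP-like cells, the latter from 116 UMIs in 120 WT cells and 48 UMIs in 114 *Tet2* KO cells. *Ifitm2* had 0.80 in plasma-like cells, which hold little of it, and -0.21 in neutro-biased GMP-like cells. *Ifitm6* had 0.89 in neutro-biased GMP-like cells, from 23 and 34 UMIs, and -1.22 in neutrophil-like cells. In neutro-biased GMP-like cells of this sort all 13 granulocytic markers had a UMI, with sums of 3614 CPM in WT and 10899.7 CPM in *Tet2* KO, and *S100a8* was the most abundant in both, at 1654 and 7146 CPM. The difference between types was not tested for any of these genes.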

How the results depend on the processing

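In the HSPC-like, mono-biased GMP-like and monocyte-like types, 108 values under alternatives were computed for 12 log2 ratios. Of these, 86 stayed within the interval of the main value, 18 moved out of it and 4 took the other sign from an interval that left out 0. The sign of the main value was kept by 100 of the 108, and of the 8 others 4 came from a main interval that held 0. In the Siglech DC-like and neutrophil-like types, 47 of 60 values stayed within the interval, 11 moved and 2 took the other sign. The cause was not tested for any value below.

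In HSPC-like cells, *Ifitm1* went from 0.08 to -0.0277 with *Ifitm* genes kept in the clustering, to -0.0406 with gates on single cells and to 0.16 at resolution 1.2. *Ifitm2* went from 0.01 to 0.0758 with gates and 0.22 in the other sort, and *Ifitm6* from 0.03 to -0.76 with gates. In mono-biased GMP-like cells, *Ifitm1* went from 1.34 to 1.08 with gates. In the other sort *Ifitm2* had 0.0794 instead of 0.19, *Ifitm3* 0.75 instead of 0.82 and *Ifitm6* 0.17 instead of -0.39.

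In monocyte-like cells, *Ifitm1* went from 2.18 to 2.93 with gates. *Ifitm2* went from 0.09 to 0.18 with *Ifitm* genes kept, 0.28 at resolution 1.2, 0.56 with gates and 0.26 with Wfdc17-high cells added, and *Ifitm3* from 0.32 to 0.37, 0.59, 0.64 and 0.52. *Ifitm6* went from -0.69 to -0.0793 at resolution 1.2, 0.0229 with gates and -0.17 with Wfdc17-high cells added. *Ifitm6* in Siglech DC-like cells went from 0.61 to -0.41 at resolution 1.2, and *Ifitm2* in neutrophil-like cells from 0.19 to -0.0668 with TMM.

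Counts of genes past 1.5-fold depended on the filter and pseudocount. In monocyte-like cells 549 genes were higher and 398 lower, against 1002 and 840 with no filter and 80 and 53 with a pseudocount of 10 CPM. Genes with few UMIs are limited by depth. No paired analysis was made, since both sorts of a genotype share a mouse but WT and *Tet2* KO libraries share only a replicate number.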
